A study of Mus musculus with 3 samples.

Results

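The 9 regulators that end inflammatory signals followed here in CD4+ T cells of 3 genotypes were Tnfaip3, Tnip1, Cyld, Zc3h12a, Zfp36, Zfp36l1, Zfp36l2, Rc3h1 and Rc3h2. They make up 9 of 23283 genes or gene groups in each of 2 deposited tables, chosen by symbol. Each symbol had 1 row in each table, and all 9 members passed the minimum of 5 FPKM (fragments per kilobase and per unit of library size, a level per length) in every library.

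The cells were CD4+ T cells of C57BL/6 mice that bound 2W:I-A(b), the 2W peptide held by an MHC class II molecule, and were sorted from lymph nodes draining the footpads 7 days after immunization with 2W1S peptide, LPS and IFA. All 3 groups received this immunization. The WT library came from wild-type mice, the MyD88 T-KO library from mice labelled Myd88 -/- and the IL6ra T-KO library from mice labelled Il-6 receptor a chain -/-, both deletions being T cell-specific per the series title. The labels used here do not name the Cre driver, the age or the sex of the mice. Each group is 1 library, pooled from 4 experiments and 15 to 30 mice, so no difference below has a replicate check or a test. The libraries held about 20.8 to 23.3 M fragments, a rough estimate from the FPKM of low genes. It searched only a range of depths fixed beforehand, so it could not have come out far from these values.

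MyD88 passes signals from IL-1 family receptors and most Toll-like receptors to NF-kB, and the IL-6 receptor alpha chain binds IL-6 and leads to STAT3. The 9 members act downstream of such signals as brakes. A20 and CYLD edit or remove ubiquitin chains that carry signals to NF-kB, and TNIP1 binds such chains and brings A20 to them. The ZFP36 proteins, Regnase-1 and the Roquins bind short-lived mRNAs of cytokines and costimulatory receptors and have them destroyed. In activated T cells the protease MALT1 cuts A20, CYLD, Regnase-1 and the Roquins, which lifts these brakes for a time.

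Before the members, the libraries were checked against their labels. Myd88 was at 19.5 FPKM in MyD88 T-KO and 49.8 FPKM in WT, whereas Il6ra was at 65.1 FPKM in the library labelled as IL6ra T-KO and 57.1 FPKM in WT, so the targeted transcript was lower in the first and not in the second, and directions given for the second are those of the library so labelled. Myd88 was also below WT in the library labelled as IL6ra T-KO, at 34.2 against 51.0 FPKM (-0.56 on the log2 scale, implied SE 0.28), which is under 1.5-fold. The values cover whole genes, and a deletion of some exons could leave them. All 10 T cell markers were measured above 1 FPKM in every library, with sums of 3682 FPKM in MyD88 T-KO, 3261 FPKM in IL6ra T-KO and 3558 and 3645 FPKM in WT as listed in the first and second table. All 10 B cell markers were higher than WT in both knockout libraries, with sums of 850 against 450 FPKM in MyD88 T-KO and 666 against 461 FPKM in IL6ra T-KO. CD8 markers summed to 22.0 against 11.4 FPKM and 14.2 against 11.7 FPKM, plasma cell markers to 29.0 against 16.2 FPKM and 65.7 against 16.6 FPKM, and macrophage and dendritic cell markers to 88.3 against 74.9 FPKM and 94.7 against 76.7 FPKM, with 5 of those 8 under 1 FPKM everywhere. Neutrophil markers summed to 39.7 against 36.2 FPKM and 21.8 against 37.1 FPKM, and NK cell markers to 8.37 against 8.33 FPKM and 9.20 against 8.53 FPKM. Some sums join opposite directions. In IL6ra T-KO the NK sum joins Eomes, at 0.77 on the log2 scale, with Klrb1c, at -0.44. The macrophage and dendritic cell sums join Lyz2, at 0.96 in MyD88 T-KO and 0.72 in IL6ra T-KO, with Cd68, at -0.08 and -0.46. Gamma delta T cell markers summed to 9.76 against 9.61 FPKM and 5.35 against 9.85 FPKM, and these sums join opposite directions too. Of the 3 with at least 1 FPKM, 2 were lower than WT and 1, Blk, was higher in each comparison. On the log2 scale they ran from -0.55 to 0.83 in MyD88 T-KO and from -2.15 to 0.52 in IL6ra T-KO. Tnfrsf17 of plasma cells, Ncr1 of NK cells, Sox13 of gamma delta T cells and Camp, Ltf, Mpo and Elane of neutrophils were under 1 FPKM in every library. In bulk RNA, fewer cells of a type and less RNA per cell cannot be told apart, and the part of these markers in the values below was not tested.

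The WT library appears in both tables, and its values for the 9 members were 1.02 times higher in the second, as they were in the median over all genes. Comparisons therefore stay within a table. The order of the members by level was Zfp36, Tnfaip3, Zfp36l2, Zfp36l1, Tnip1, Cyld, Zc3h12a, Rc3h1 and Rc3h2 in WT, from 616 down to 9.09 FPKM in the first table. In both knockout libraries Tnfaip3 came after Zfp36l2 and Zfp36l1, and in MyD88 T-KO Zc3h12a came after Rc3h1. Neighbours such as Zfp36l2 and Zfp36l1 in MyD88 T-KO, 1.09-fold apart, or Tnip1 and Cyld in WT, 1.15-fold apart, lie close, and with 1 library per group no spread is at hand to separate them. The ZFP36 genes and Tnfaip3 stood above at least 97.2% of the genes the authors tested in each library, and Rc3h2 near the middle.

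**Figure D1:**
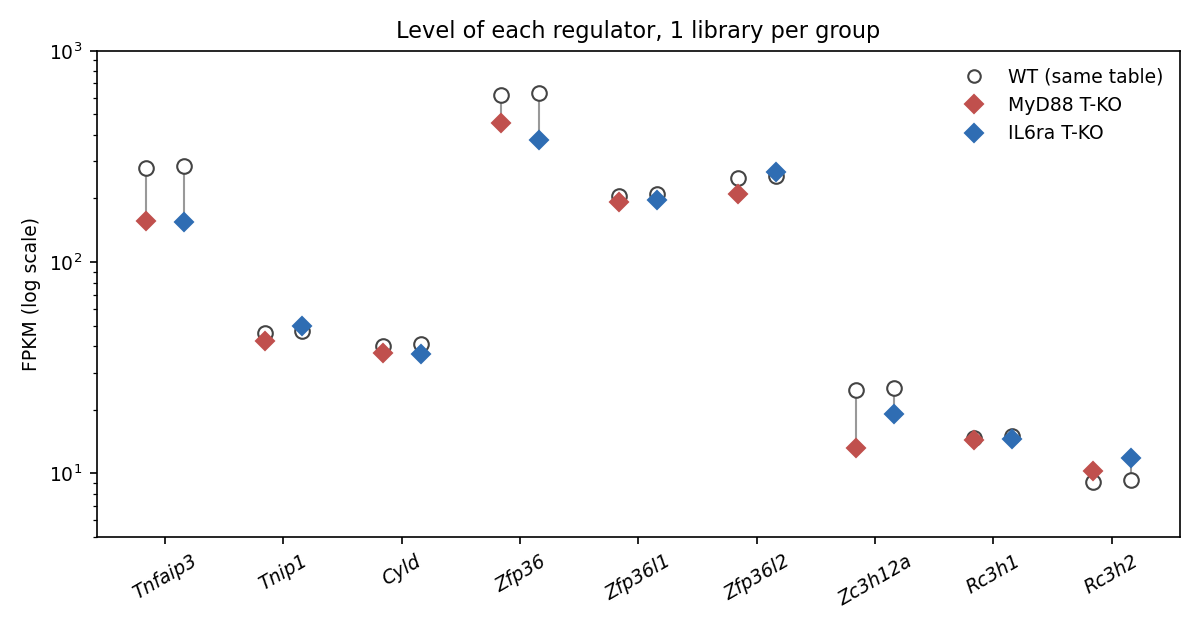
FPKM (log axis) of the 9 regulators, with the WT library of the same table as open circles and the knockout libraries as diamonds, 1 library per group. Tnfaip3 lies at 156 and 154 FPKM in the knockout libraries against 279 and 286 FPKM in WT, while Rc3h1 stays between 14.3 and 15.1 FPKM.

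Ratios below are log2((knockout FPKM + 1)/(WT FPKM + 1)), and a difference of 1.5-fold was the size rule for a higher or lower gene. The error beside a ratio is the implied SE, the standard error contained in the authors' fold change and test statistic. It comes from their model of 2 libraries and not from replicates. In MyD88 T-KO 2 of the 9 members, Tnfaip3 and Zc3h12a, were lower by this rule, beside 0.895% of the 7933 genes with at least 5 FPKM, and 0 were higher, beside 0.996%. Tnfaip3 and Zfp36, again 2 of 9, were lower in the library labelled as IL6ra T-KO, beside 2.78% of 8100 genes, and 0 were higher, beside 3.42%. At 2-fold, 0 members were lower or higher in either comparison, beside 0.24% lower and 0.189% higher of all genes in the first and 0.741% and 0.951% in the second. The median ratio of all these genes was 0.01 in the first comparison and -0.06 in the second.

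Tnfaip3 (chromosome 10, 19000910 to 19015410, mm10, minus strand) encodes A20, a ubiquitin-editing enzyme that NF-kB induces and that in turn switches NF-kB signalling off. It was at 156 FPKM in MyD88 T-KO against 279 FPKM in WT, and at 154 FPKM in the library labelled as IL6ra T-KO against 286 FPKM in WT. Both knockout libraries were low, at nearly the same level. The ratios were -0.84 (implied SE 0.20) and -0.88 (implied SE 0.35), and 32 of 7933 and 80 of 8100 genes had a lower ratio. The authors' deposited table marked Tnfaip3 as significant between the first pair of libraries, with a q-value of 0.00489, and not between the second, where the q-value was 0.382.

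Tnip1 (chromosome 11, 54910787 to 54962940, minus strand) encodes ABIN1, which binds ubiquitin chains and brings A20 to them. It was at 42.5 FPKM in MyD88 T-KO against 46.1 FPKM, and at 49.9 FPKM in the library labelled as IL6ra T-KO against 47.2 FPKM. The ratios of -0.12 (implied SE 0.16) and 0.08 (implied SE 0.28) were smaller than their errors. Cyld (chromosome 8, 88697028 to 88751945, plus strand) encodes a deubiquitinase that strips signalling chains from NF-kB activators. Its levels were 37.0 against 40.1 FPKM and 36.8 against 41.1 FPKM, with ratios of -0.11 (implied SE 0.17) and -0.16 (implied SE 0.28). Of the 3 ubiquitin regulators, Tnfaip3 was thus the 1 member past 1.5-fold.

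The promoters of Tnfaip3 and Tnip1 are shown because NF-kB sites in them are the textbook route by which A20 and ABIN1 are induced. That of Zfp36 is shown because its level was also lower by 1.5-fold in IL6ra T-KO. The windows, from RefSeq on GRCm38.p6, run from 250 bases before the start site to 50 after it and read 5′ to 3′ on the gene's strand. Tnfaip3 lies at chr10:19015361-19015660, Tnip1 at chr11:54962891-54963190 and Zfp36 at chr7:28379179-28379478, all on the minus strand. Capitals mark every match, on either strand, to the NF-kB consensus, the AP-1 site TGANTCA, the STAT site TTCNNNGAA, the cAMP response element TGACGTCA or the CArG box of serum response factor.
Tnfaip3: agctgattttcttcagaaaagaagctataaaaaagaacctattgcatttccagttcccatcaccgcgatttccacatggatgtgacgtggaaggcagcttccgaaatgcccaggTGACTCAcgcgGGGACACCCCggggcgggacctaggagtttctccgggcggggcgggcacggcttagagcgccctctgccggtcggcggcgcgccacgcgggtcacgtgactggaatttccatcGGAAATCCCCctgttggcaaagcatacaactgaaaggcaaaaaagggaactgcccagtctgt
Tnip1: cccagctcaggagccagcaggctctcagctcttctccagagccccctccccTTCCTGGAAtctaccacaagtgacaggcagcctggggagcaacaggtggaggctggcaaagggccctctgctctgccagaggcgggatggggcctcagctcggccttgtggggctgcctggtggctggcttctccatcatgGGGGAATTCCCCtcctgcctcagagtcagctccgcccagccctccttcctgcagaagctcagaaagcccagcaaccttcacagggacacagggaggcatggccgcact
Zfp36: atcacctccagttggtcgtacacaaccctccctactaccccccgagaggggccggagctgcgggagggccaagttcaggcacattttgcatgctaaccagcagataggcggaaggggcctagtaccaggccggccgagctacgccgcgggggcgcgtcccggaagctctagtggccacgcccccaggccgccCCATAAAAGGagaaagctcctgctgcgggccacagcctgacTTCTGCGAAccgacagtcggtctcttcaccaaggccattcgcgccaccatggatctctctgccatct

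The Tnfaip3 window held an AP-1 match at -136 to -130 and 2 NF-kB matches, GGGACACCCC at -125 to -116 and GGAAATCCCC at -12 to -3, counted from the start site. A second Tnfaip3 start in the table, inside the gene, had no match. Tnip1 held 3 overlapping NF-kB matches within -58 to -47 and a STAT match at -199 to -191, and Cyld 1 NF-kB match at -155 to -146. Zfp36 held a CArG box at -58 to -49 and a STAT match at -17 to -9. In Zc3h12a and Rc3h2 none of the 5 motifs was found, while Zfp36l1 and Rc3h1 each held 1 AP-1 match. Windows were found for 8 of 9 members. Of 32841 windows of the same length, 4.51% held the NF-kB consensus, 7.81% the AP-1 site, 8.30% the STAT site, 1.79% the cAMP response element and 1.63% the CArG box. Tnip1 and Cyld carry the NF-kB letters and lay near WT, and Zc3h12a, lower by 1.5-fold in MyD88 T-KO, does not carry them in this window. A match in a window is a description of letters and does not show binding. Any link between these letters and the levels was not tested.

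Zfp36 (chromosome 7, 28376784 to 28379228, minus strand) encodes tristetraprolin, which binds AU-rich stretches in the 3′ untranslated regions (UTRs) of cytokine mRNAs and calls in the CCR4-NOT deadenylase. It had the highest level of the 9 members in every library, at 453 FPKM in MyD88 T-KO against 616 FPKM in WT and at 379 FPKM in the library labelled as IL6ra T-KO against 631 FPKM in WT. Both knockout libraries were below WT, IL6ra T-KO the further. The ratios were -0.44 (implied SE 0.19) and -0.73 (implied SE 0.32), with 118 and 132 genes lower. Only the second passed 1.5-fold, and the authors' deposited table marked neither, with q-values of 0.748 and 0.579. Whether the 2 ratios differ was not tested, and both use the same WT library.

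Zfp36l1 (chromosome 12, 80107760 to 80113013, minus strand) and Zfp36l2 (chromosome 17, 84183928 to 84187947, minus strand) encode relatives of tristetraprolin that share its zinc finger type and keep lymphocytes quiescent. Zfp36l1 was at 192 against 205 FPKM in MyD88 T-KO and at 197 against 210 FPKM in the library labelled as IL6ra T-KO, with ratios of -0.09 in both (implied SE 0.18 and 0.30). Zfp36l2 was at 209 against 250 FPKM and at 266 against 256 FPKM, with ratios of -0.26 (implied SE 0.18) and 0.05 (implied SE 0.32). Summed over the 3 genes, the family stood at 855 against 1071 FPKM in MyD88 T-KO and 842 against 1097 FPKM in the library labelled as IL6ra T-KO. Zfp36 gave 57.5% of the WT sum, 53.1% of the MyD88 T-KO sum and 45.0% of the IL6ra T-KO sum.

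Zc3h12a (chromosome 4, 125118414 to 125127881, minus strand) encodes Regnase-1, an endonuclease that cuts stem-loops in mRNAs such as those of Icos, Tnfrsf4 and Rel. It was at 13.1 FPKM in MyD88 T-KO against 24.7 FPKM in WT and at 19.1 FPKM in the library labelled as IL6ra T-KO against 25.3 FPKM in WT. MyD88 T-KO was the lowest library, and IL6ra T-KO lay between it and WT. The ratios were -0.86 (implied SE 0.17) and -0.39 (implied SE 0.29), with 29 and 560 genes lower. In the authors' deposited table the first had a q-value of 9.44e-05 and was marked as significant, and the second had a q-value of 1.00. The difference between the 2 ratios was not tested.

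Rc3h1 (chromosome 1, 160906411 to 160974976, plus strand) and Rc3h2 (chromosome 2, 37370071 to 37422903, minus strand) encode Roquin-1 and Roquin-2, which bind stem-loops in mRNAs of Icos and Tnfrsf4 and can stand in for each other in T cells. Rc3h1 was at 14.3 against 14.7 FPKM and at 14.6 against 15.1 FPKM, with ratios of -0.04 in both (implied SE 0.16 and 0.27). The second changes sign, to 0.01, when ratios are centred on the median gene. Rc3h2 was at 10.3 against 9.09 FPKM and at 11.8 against 9.32 FPKM, with ratios of 0.16 (implied SE 0.17) and 0.31 (implied SE 0.29). It had the largest ratio of the 9 members in both comparisons, within about 1 implied SE of 0 and under 1.5-fold.

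Across the 9 members, 8 lay below 0 in MyD88 T-KO, where 45.5% of all genes did, and 6 in the library labelled as IL6ra T-KO, where 61.9% did. The authors' deposited tables marked 2 members as significant in the first comparison, where 0.484% of 11164 tested genes were marked lower and 0.394% higher. They marked 0 members in the second, where 0.467% of 11356 were marked lower and 0.502% higher. The 2 comparisons share the WT library, so they are not independent of each other.

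**Figure D2:**
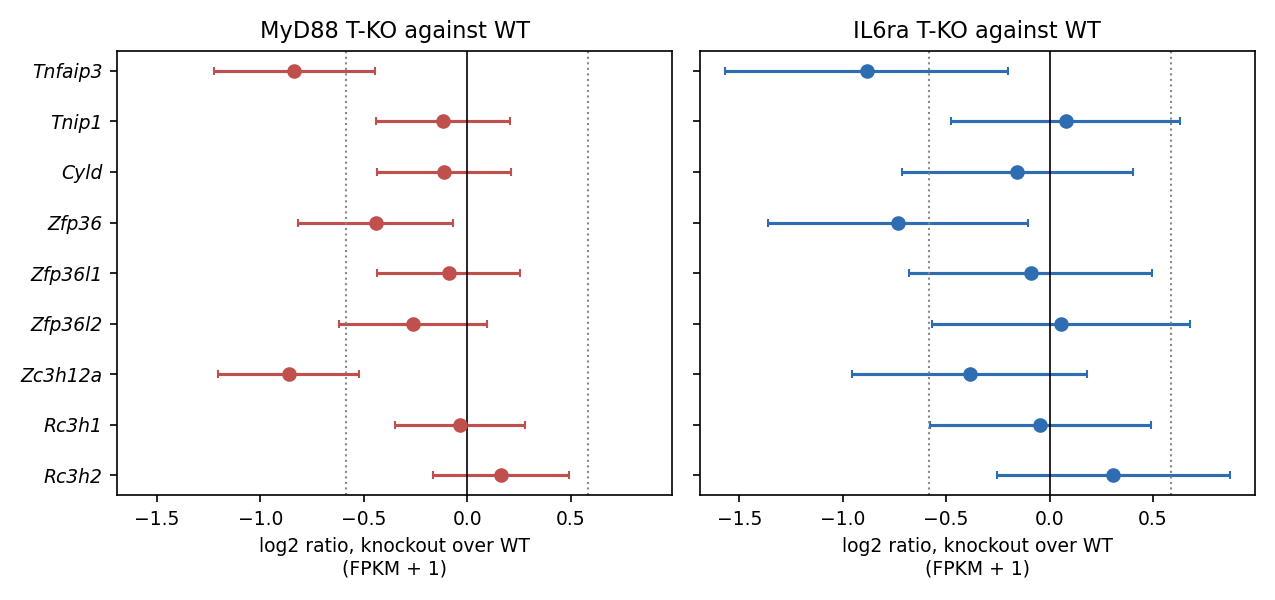
Log2 ratio of knockout over WT, FPKM + 1, for the 9 members, with bars of 1.96 implied SE from the authors' model of 2 libraries (not replicate error) and dotted lines at 1.5-fold. Tnfaip3 lies left of the line in both panels, at -0.84 and -0.88, Zc3h12a in the first (-0.86) and Zfp36 in the second (-0.73).

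**Figure D3:**
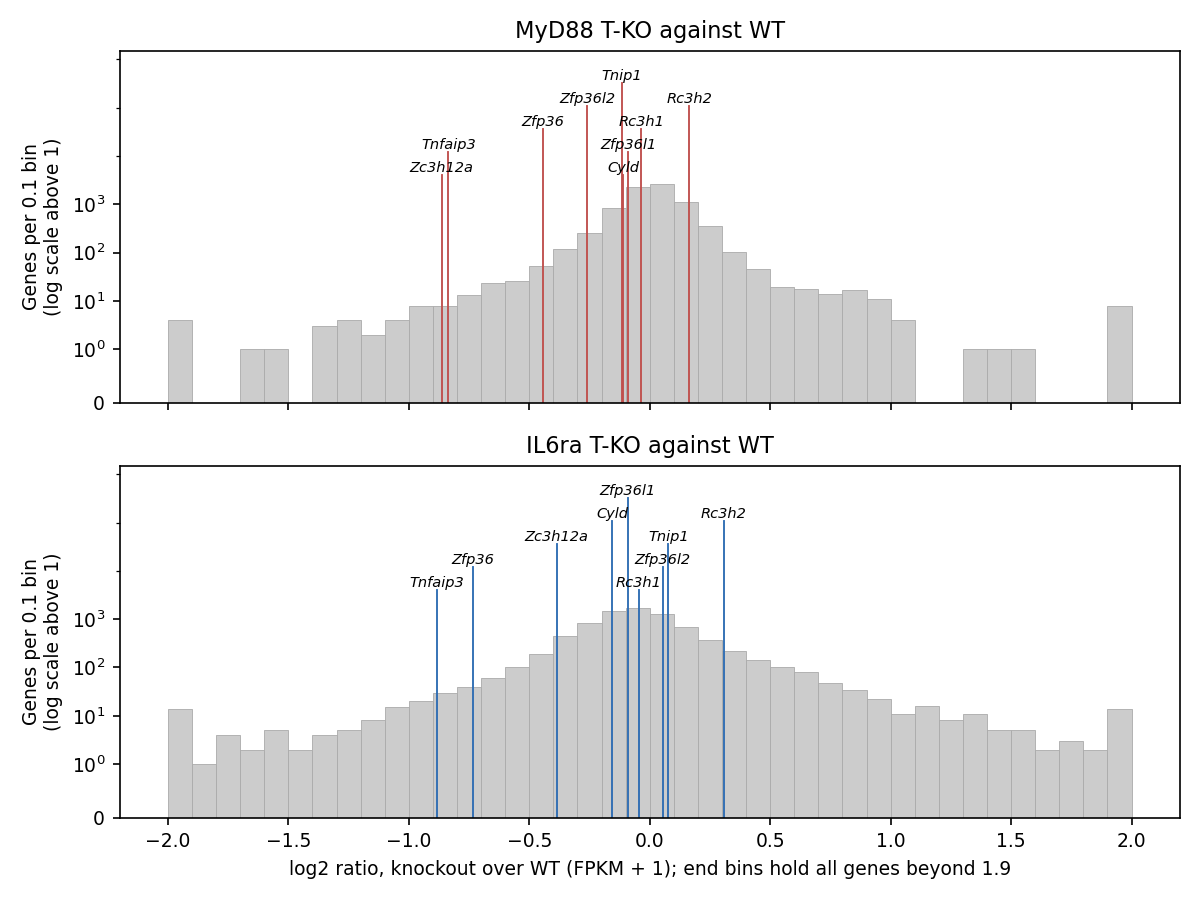
Number of genes per 0.1 of log2 ratio (vertical axis, log scale above 1) for genes with at least 5 FPKM, with the 9 members as coloured lines. Tnfaip3 and Zc3h12a lie in the thin left tail for MyD88 T-KO, with 32 and 29 genes further left, and most other members lie near the peak.

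The 3′ UTRs of the members were read from GENCODE M21 on GRCm38, 1 transcript per gene, for the heptamer TATTTAT, the core of the AU-rich element that ZFP36 proteins bind. It was found in 7 of the 9 members, in 28.3% of 7251 genes with at least 5 FPKM, and in 28.5% of the 3809 of these with a UTR of 500 to 2500 bases. At least 3 copies were in 4 of 9 members, Zfp36, Zfp36l1, Zfp36l2 and Rc3h2, in 3.24% of all and in 2.07% of those with a UTR of 500 to 2500 bases. The median UTR was 1822 bases over the members and 1003 over all. Cyld, Rc3h1 and Rc3h2, which all held the heptamer, have UTRs longer than that range, so it is no length match for them. Tnfaip3 held 2 copies in 1821 bases, Zfp36 3 in 774, Zfp36l1 3 in 1835 and Zfp36l2 3 in 1822. The long UTRs of Cyld, Rc3h1 and Rc3h2, of 4932, 7181 and 5160 bases, held 2, 2 and 3 copies. The UTRs of Tnip1 and Zc3h12a, of 752 and 856 bases, held 0. Sites are shown for Tnfaip3 and for the whole ZFP36 family, whose mRNAs carry the very letters their proteins bind, with the heptamer in capitals.
Tnfaip3, chr10:19001034-19001062: tgtgaaatggtTATTTATacttatagaaa
Zfp36, chr7:28376966-28376994: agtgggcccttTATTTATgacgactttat
Zfp36, chr7:28376926-28376954: agattttatagTATTTATatatattgggt
Zfp36l1, chr12:80108422-80108450: ttatcaaaacgTATTTATtgccaaactat
Zfp36l2, chr17:84184914-84184942: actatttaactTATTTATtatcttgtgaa

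All 5 read 5′ to 3′ on the minus strand. The heptamers of Zfp36 lie close together, with first bases at 575, 590 and 615 of the UTR. Among the genes of the list of reported ZFP36 targets with at least 5 FPKM, 7 of 7 held the heptamer and 6 of 7 at least 3 copies, and that list was drawn up from such targets. A match is a description of letters and does not show binding. The members past 1.5-fold included both a gene with 3 heptamers in a short UTR (Zfp36) and one with 0 (Zc3h12a). Whether the heptamers bear on the levels was not tested.

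**Figure D4:**
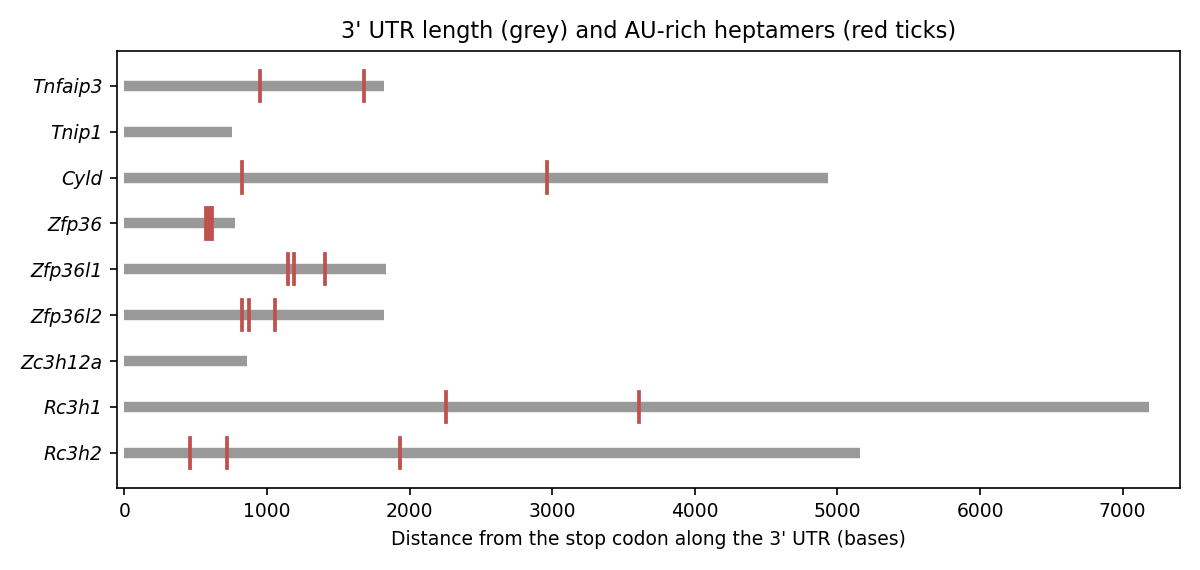
Length of the 3′ UTR of each member (grey, bases from the stop codon) with the positions of the heptamer TATTTAT as red ticks. The 3 ticks of Zfp36 crowd into 1 stretch, and Tnip1 and Zc3h12a have 0.

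The other genes of these pathways were counted from fixed lists, over members with at least 1 FPKM. Partners and substrates of A20, among them Tax1bp1, Itch, Ripk1, Traf6 and the linear ubiquitin ligase genes, had a median ratio of -0.01 in MyD88 T-KO (8 of 17 above 0, from -0.19 for Rnf11 to 0.17 for Fam105b, the OTULIN gene) and of -0.03 in the library labelled as IL6ra T-KO (6 of 17 above 0, from -0.44 for Tnip2 to 0.47 for Ripk2). Of these 17, 0 passed 1.5-fold in either comparison. Of all genes, 0.895% were lower and 0.996% higher in the first comparison, and 2.78% and 3.42% in the second. Tnfaip3 was lower while the genes of the proteins it works with were near WT.

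Malt1, which encodes the protease that cuts several of the members' proteins, had a log2 ratio of 0.06 in MyD88 T-KO. In the library labelled as IL6ra T-KO it was at 54.3 against 89.7 FPKM, with a log2 ratio of -0.72 (implied SE 0.28), past 1.5-fold. Bcl10, whose protein binds MALT1 and carries antigen receptor signals to NF-kB, had ratios of -0.24 and -0.49.

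General decay factors were near WT. The 25 genes of CCR4-NOT, decapping and related factors had medians of -0.0040 and -0.0068. In MyD88 T-KO 0 passed 1.5-fold, beside 0.895% of all genes lower and 0.996% higher. In the library labelled as IL6ra T-KO 0 were higher, beside 3.42% of all genes, and 1 was lower, beside 2.78%. That gene was Btg1, which encodes an antiproliferative partner of the CCR4-NOT deadenylases, at 136 against 218 FPKM (-0.68, implied SE 0.31). Of its relatives, Tob1 had ratios of -0.54 in MyD88 T-KO and -0.51 in IL6ra T-KO, and Tob2 of -0.24 and -0.55. Among 9 other mRNA stability factors, 0 passed 1.5-fold in MyD88 T-KO, where Zc3h12d, a relative of Regnase-1, was at -0.32. In the library labelled as IL6ra T-KO 2 of these 9 were lower by 1.5-fold, beside 2.78% of all genes. Arid5a, whose protein shields mRNAs such as Il6 from Regnase-1, was at 13.0 against 27.4 FPKM, with a log2 ratio of -1.02 (implied SE 0.29), and Zc3h12d was at 25.0 against 40.3 FPKM, with a log2 ratio of -0.67 (implied SE 0.28).

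Other feedback genes that NF-kB induces had medians of -0.18 and -0.20, with 6 of 9 below 0 in each comparison. In MyD88 T-KO 1 passed 1.5-fold, Nfkbiz, at 38.1 against 89.8 FPKM (-1.21, implied SE 0.17). In the library labelled as IL6ra T-KO 2 did, Nfkbia, which encodes the inhibitor that holds NF-kB in the cytoplasm, at -0.76 (implied SE 0.33) and Nfkbiz at -0.75 (implied SE 0.28). Nfkb1 was at 0.08 and 0.31. The counts of 1 and 2 of 9 stand beside 0.895% and 2.78% of all genes, and the medians beside all-gene medians of 0.01 and -0.06.

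Reported targets of the decay factors were also counted. Of the ZFP36 targets, 9 of 10 lay below 0 in MyD88 T-KO, with a median of -0.70, where 45.5% of all genes lay below 0. Of the 6 with at least 5 FPKM, 5 were lower by 1.5-fold, beside 0.895% of all genes. These 5 were Il17a at -1.66 (implied SE 0.40, 1.73 against 7.60 FPKM), Il22 at -1.38 (implied SE 0.17), and Ifng, Tnf and Il10 at -0.90, -0.72 and -0.68, the last 3 named after their values were seen. In the library labelled as IL6ra T-KO the median of the list was -0.40, with 7 of 10 below 0, where 61.9% of all genes were. Of the 7 with at least 5 FPKM, 2 were lower and 2 higher by 1.5-fold, beside 2.78% and 3.42% of all genes. Il22 was lower, at 3.10 against 173 FPKM (-5.41, implied SE 0.48), and Ifng was higher, at 27.7 against 12.5 FPKM (1.09, implied SE 0.39). Il17a was at 1.23 against 7.79 FPKM (-1.98, implied SE 0.63) and Ccl3 at 5.65 against 1.40 FPKM (1.47, implied SE 0.71). Il17a in both comparisons and Il22 in the second reached the minimum of 5 FPKM in WT only. Ccl3 in the second reached it only in the knockout library, so it entered the count only by differing from WT. Zfp36, whose protein destroys such mRNAs, was below WT in both knockout libraries.

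Targets of Regnase-1 and the Roquins had a median of -0.30 in MyD88 T-KO, with 9 of 10 below 0, where 45.5% of all genes were. Beside 0.895% of all genes, 4 of the 9 with at least 5 FPKM were lower by 1.5-fold. These were Nfkbiz, Zc3h12a itself, which is both a member and a target, and Tnf and Ctla4 at -0.72 and -0.66, named after their values were seen. The median in the library labelled as IL6ra T-KO was -0.21, with 6 of 10 below 0, near the 61.9% of all genes. Nfkbiz was the 1 gene of 9 past 1.5-fold, at -0.75, beside 2.78% of all genes lower. Of the costimulatory receptor genes named above as targets, Tnfrsf4, which encodes OX40, was at 99.3 against 91.0 FPKM there (0.12, implied SE 0.27) and at 82.8 against 88.9 FPKM in MyD88 T-KO (-0.10, implied SE 0.16). Icos was at 169 against 169 FPKM (0.0029, implied SE 0.29) and at 135 against 165 FPKM (-0.29, implied SE 0.17). Il2 and Tnf stand on both target lists, and Il2 was near or under 1 FPKM in every library. Nfkbiz and Nfkbid stand on the list of feedback genes as well, so the counts of these lists are not separate.

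Immediate early genes, which respond within minutes to stimulation and to handling of cells, were counted beside the members. Of the 18 with at least 5 FPKM, 7 were lower by 1.5-fold in MyD88 T-KO and 6 in the library labelled as IL6ra T-KO, beside 0.895% and 2.78% of all genes. Their medians were -0.41 and -0.47, with 18 of 20 below 0 in each comparison, where 45.5% and 61.9% of all genes were. The levels of the list summed to 2300 against 3382 FPKM in MyD88 T-KO and to 2268 against 3463 FPKM in the library labelled as IL6ra T-KO. Fosb at -1.08 (implied SE 0.17) and Fosl2 at -1.01 (implied SE 0.17) were the lowest in the first, and Fosl2 at -1.25 (implied SE 0.29) and Junb at -0.98 (implied SE 0.37) in the second. The list did not move as 1 block. Egr2 at 0.08 and Egr1 at 0.01 were the highest in the first, and Hspa1a at 0.08 and Hspa1b at 0.01 in the second, all near WT. Zfp36 and Tnfaip3 are themselves rapidly induced genes. The part of stimulation or handling in their values was not tested.

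The genes with a pattern most like Tnfaip3 were sought by the distance between the pairs of ratios, over 3 libraries and among genes with at least 20 FPKM in every column of both tables. The 5 nearest were Csrnp1 (-0.74 and -0.93, distance 0.11), Jun (-0.73 and -0.96, distance 0.13), Fos (-0.70 and -0.77, distance 0.18), Junb (-0.63 and -0.98, distance 0.23) and Fam100b (-0.60 and -0.76, distance 0.27). Jun, Fos and Junb encode subunits of the AP-1 transcription factor. Jun was at 116 against 194 FPKM in MyD88 T-KO and at 101 against 199 FPKM in the library labelled as IL6ra T-KO, close to the proportions of Tnfaip3. Ratios that share a WT library place many genes together, so likeness here is a description of these 3 libraries.

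**Figure D5:**
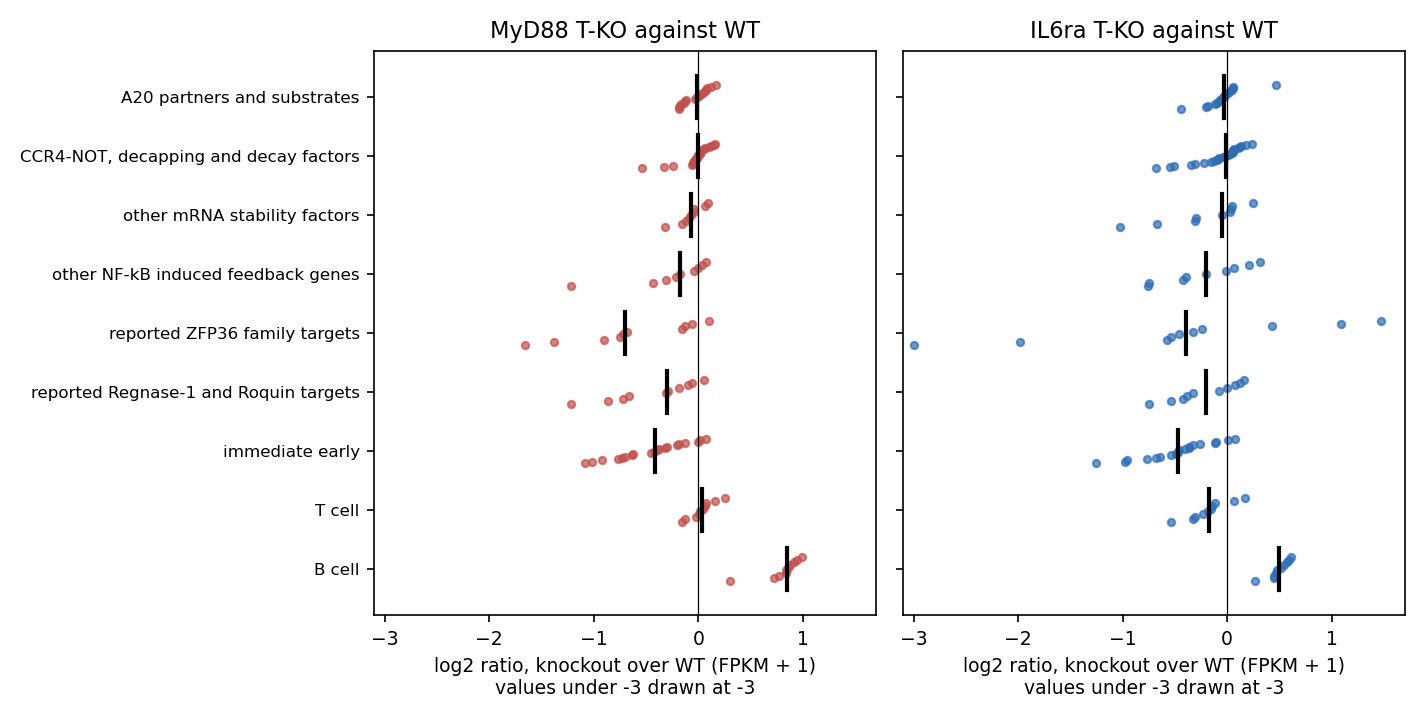
Log2 ratio of knockout over WT, FPKM + 1, of each listed gene with at least 1 FPKM (points), with the list median as a black bar; Il22 at -5.41 is drawn at -3. Immediate early genes lie mostly left of 0 in both panels, with medians of -0.41 and -0.47, A20 partners and CCR4-NOT genes around 0, and B cell markers right of 0.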

How the data were processed

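RNA of 3 libraries was compared in 2 tables, each with 4 sheets by test status. Per the labels' protocols polyA-containing RNA was used, and per the submitters' processing notes TopHat, Cufflinks and mm10 were used, with versions and settings not given in the sources used here. Some items are not reported here. FPKM values, per the file headers, were deposited for both libraries of a table. The deposited log2 fold change (WT over knockout) and test statistic, a score, gave the implied SE, and deposited p-values and q-values are the authors' for 1 library against 1 library. The fold change of 2 libraries has no replicate error. Of each table, 1 line held no values.

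Here log2((knockout FPKM + 1)/(WT FPKM + 1)) was computed with Python 3.11.15 and pandas 2.3.3. Genes with at least 5 FPKM in 1 library were counted at 1.5-fold, and lists used at least 1 FPKM. The calculation was tested on simulated data. Depth, from the FPKM steps of low single-transcript genes, bears on counting error only. It was about 20.8 M (MyD88 T-KO), 21.9 and 21.4 M (WT, first and second table) and 23.3 M fragments (IL6ra T-KO). The steps were sought only in a range fixed beforehand, so these figures are rough and do not rank the libraries. Coordinates are those of the tables with 1 added to starts. The members, lists and rules were chosen with earlier results of these data known. The genes named by rule are the members, Myd88, Il6ra, up to 2 genes per list and direction with at least 5 FPKM, and the 5 nearest to Tnfaip3. Others were named outside this rule. Among them are Icos, markers under 1 FPKM, genes beside the members' loci, and genes that met the rule in 1 comparison but are given for both. Alternatives covered pseudocounts of 0.1 and 5 FPKM, centring, the other WT column, summed rows, 2-fold and other FPKM minimums.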

Additional observations from a re-analysis of the deposited data

How the results depend on the processing

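The counts of members past 1.5-fold were the same under each alternative but 2-fold, under which the 2 lower members became 0 in MyD88 T-KO and 0 in IL6ra T-KO. The other alternatives were pseudocounts of 0.1 and 5 FPKM, no pseudocount (chosen after seeing the data), median-centred ratios, WT values of the other table, summed rows, no FPKM minimum and a minimum of 20 FPKM. All 108 recomputed ratios of members moved by less than 1 implied SE, but several alternatives were no real check. Summed rows could not change a ratio, because each member had 1 row. Dropping the FPKM minimum could not change the counts, because all members passed 5 FPKM in every library. The other WT column and centring shifted all members of a comparison by nearly the same small amount. Tnfaip3 ranged from -0.87 to -0.82 in MyD88 T-KO and from -0.89 to -0.83 in IL6ra T-KO, Zc3h12a from -0.91 to -0.71 and from -0.40 to -0.33, and Zfp36 from -0.48 to -0.44 and from -0.74 to -0.68. Rc3h1 in IL6ra T-KO changed sign, to 0.01, with centring. Of 96 list medians recomputed, 1 moved further than its members' median implied SE, that of gamma delta T cell markers in IL6ra T-KO, to -1.72 with a pseudocount of 0.1 FPKM, which weighs low genes more. No paired analysis was possible because each group has 1 library, and for the same reason no library could be left out. By the rough depth estimate, the member with the fewest fragments, Zc3h12a in MyD88 T-KO, rested on about 753. That estimate could only fall within a range fixed beforehand, so whether depth limits the members was not tested.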

Other observations

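Genes beside the loci of the lower members were near WT in most cases. Within 250 kb of Zfp36, 9 genes had at least 5 FPKM, and their ratios ran from -0.07 for Fbl to 0.24 for Timm50 in MyD88 T-KO. In the library labelled as IL6ra T-KO they ran from -0.64 for Gmfg, which encodes a regulator of actin branching and was at 63.4 against 99.2 FPKM, to 0.14 for Timm50. Plekhg2, the nearest at 4122 bases, was at 0.04 and -0.38. Within the same distance of Zc3h12a, 4 genes were measured, and Meaf6, 8525 bases away, was at 0.05 and -0.02 while Cdca8, a mitosis gene, was at 0.39 and 0.52. Within 250 kb of Tnfaip3, 0 genes had at least 5 FPKM. These genes were chosen by distance after the values of the members were known.

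The authors' marks and the sizes of the ratios part ways for Tnfaip3. A ratio of -0.84 was marked as significant in the MyD88 T-KO table and one of -0.88 was not in the IL6ra T-KO table. The median implied SE over tested genes was 0.21 in the first table and 0.36 in the second, and the SD of all ratios over genes with at least 5 FPKM was 0.24 and 0.39. A mark in one table and none in the other is therefore no measure of a difference between the knockouts.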
